A study of Mus musculus with 2 samples.

Results

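The cells described here were mature B cells with few transcripts of the immediate-early genes Egr1, Egr2, Egr3 and Nr4a1, taken from the inflamed colon of mice with dextran sulfate sodium (DSS) colitis and put forward as resting B cells. Of 13923 cells kept in both libraries, 1755 met the rule, 426 of 6005 in the WT library and 1329 of 7918 in the Ring1AKO library. A kept cell had at least 1000 UMIs (unique molecular identifiers, each marking 1 captured transcript), at least 500 genes and less than 5% mitochondrial UMIs. A member had at least 5 UMIs of Cd79a, Cd79b and Ms4a1 together, no UMI of Cd3e (T cells), Csf1r (macrophages) or Mki67 (dividing cells), less than 1% of its UMIs from Jchain (plasma cells) and at most 2 UMIs of Egr1, Egr2, Egr3 and Nr4a1 together. Both groups were C57BL/6 mice given 2.5% DSS in drinking water for 7 or 8 days and labelled as 8 to 10 weeks old, so the design held no untreated colon. The study's methods name C57BL/6J as the strain with which the knockout mice were crossed. By the labels and the study's methods the WT group had intact Ring1 and the Ring1AKO group was deficient for it in the whole body, which the counts here could not check. Ring1 encodes Ring1A, a ubiquitin ligase of Polycomb repressive complex 1. Live CD45+ cells of the lamina propria, sorted as 7-AAD-, were pooled from 5 mice per group, and each pool gave 1 single-cell library. With 1 library per genotype no difference between genotypes could be tested, and every interval below is a 95% interval that covers counting error only.

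Mature B cells bind antigen through a surface immunoglobulin that signals through CD79A and CD79B, and naive follicular B cells carry IgM and IgD together with CD23 (Fcer2a) and CD21 (Cr2). They recirculate between blood and lymphoid follicles, which in the colon include the isolated follicles and patches of the mucosa, and they present antigen to T cells on MHC class II. Receptor engagement rapidly induces the Egr and Nr4a transcription factors, and enzymatic digestion of tissue induces many of the same genes. Interferons act on B cells through Janus kinases and STAT transcription factors, which switch on guanylate-binding proteins, immunity-related GTPases and the peptide-loading machinery of MHC class I.

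The members were chosen by the UMI counts of the 11 genes named in the rule, and the counts of Egr1, Egr2, Egr3 and Nr4a1 formed a continuum. Among B cells that met every other criterion, 136, 154 and 136 WT cells had 0, 1 and 2 UMIs of these genes, and 100 cells just outside the limit had 3. In the Ring1AKO library the corresponding numbers were 471, 461 and 397 cells inside and 323 cells at 3 UMIs. No gap separated the members from the rest, which are called Egr-high B cells below and numbered 635 in WT and 2100 in Ring1AKO. At the limit, cells with 2 and with 3 UMIs had 1821 and 1723 CPM of Ebf1 in WT and 1693 and 1848 CPM in Ring1AKO, where CPM is the gene's summed UMIs per 1000000 UMIs of the class. The limit on Cd79a, Cd79b and Ms4a1 lay in a thin tail, with 19 WT and 20 Ring1AKO members at exactly 5 UMIs and 7 and 14 cells just outside at 4 UMIs.

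**Figure D1:**
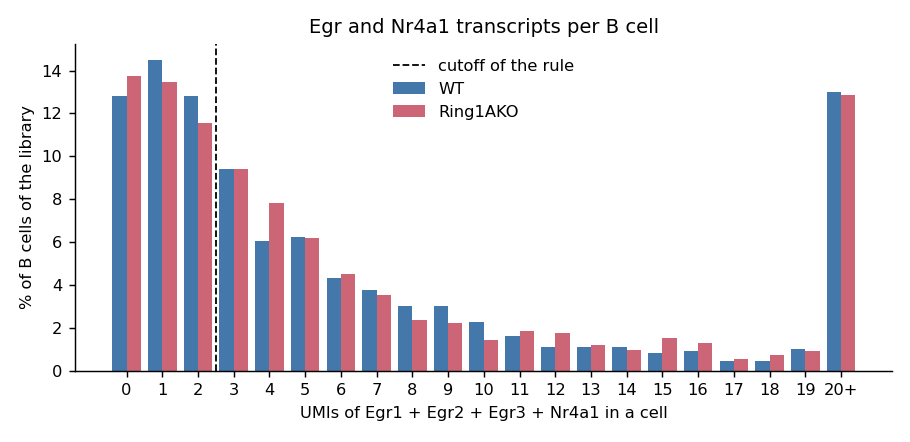
Percent of B cells of each library (y axis) with each number of UMIs of Egr1, Egr2, Egr3 and Nr4a1 together (x axis, 20 or more in the last bin), with the limit of the rule as a dashed line. Both libraries fall off smoothly across the limit, from 12.8% of WT and 11.6% of Ring1AKO B cells at 2 UMIs to 9.43% and 9.42% at 3 UMIs.

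The members carried the transcripts of mature B cells. Ebf1, a transcription factor that specifies the B lineage, was at 1739 CPM in WT and 1793 CPM in Ring1AKO, against 1.61 and 7.56 CPM in T cells of the same libraries (cells with Cd3e and no Cd79a, Cd79b or Ms4a1). Bank1, a B cell adaptor protein, was at 617 CPM in WT and 469 CPM in Ring1AKO, and Fcer2a at 281 CPM in WT and 195 CPM in Ring1AKO. Cr2, the complement receptor CD21, was at 301 CPM in WT and 179.8 CPM in Ring1AKO, and both Cr2 and Fcer2a stayed at or below 1.95 CPM in T cells. After each cell was thinned to 2000 UMIs, which left out 4 WT and 18 Ring1AKO members, Ebf1 was seen in 401 of 422 WT and 1245 of 1311 Ring1AKO members and in 0.280% and 1.24% of T cells. Fcer2a was seen in 39.6% (34.9 to 44.4) of WT and 29.1% (26.6 to 31.6) of Ring1AKO members at that depth, and in 54.9% and 47.3% before thinning. The other marker genes, Cd79a (2007 and 2546 CPM) and Ms4a1 (749.6 and 536 CPM), belonged to the rule and are given as a description. Ms4a1 had no UMI in 7.28% of WT and 15.7% of Ring1AKO members, which entered through the CD79 genes.

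**Figure D2:**
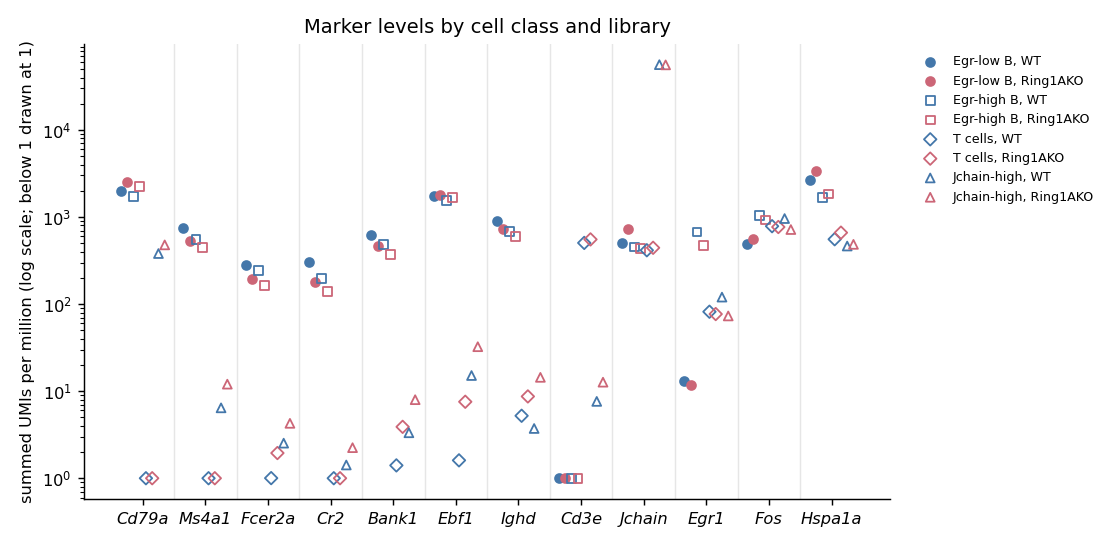
Summed UMIs in CPM (log y axis) of 12 genes in Egr-low B cells (filled), Egr-high B cells, T cells and cells with 1% or more of Jchain, for the WT (blue) and Ring1AKO (red) library. The B lineage genes outside the rule separate both B classes from T cells, while Fos and Hspa1a are present in every class. T cells were chosen to lack Cd79a, Cd79b and Ms4a1, and the B classes to carry them, so these genes cannot test that separation. They do not mark off all Jchain-high cells either. The Jchain limit removed 519 WT and 452 Ring1AKO cells that had already met the limit on these genes.

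The word resting was only partly borne out, so the cells are called Egr-low B cells here. Fos, an immediate-early gene that the rule did not use, was at 487 CPM in WT and 556 CPM in Ring1AKO, and Jun at 753 CPM in WT and 661 CPM in Ring1AKO. The stress chaperone Hspa1a was at 2649.9 CPM in WT and 3395 CPM in Ring1AKO, above the 556 and 662 CPM of T cells. Cd83 and Cd69, surface proteins of recently activated B cells, were at 752 and 804 CPM and 389 and 379 CPM. At 2000 UMIs per cell, 69.7% of WT and 71.5% of Ring1AKO members had a UMI of Cd83, against 11.8% and 11.7% of T cells. Fos and Cd69 went the other way, with Fos in 43.8% and 54.0% of members and 60.2% and 61.7% of T cells, and Cd69 in 47.2% and 46.1% of members and 54.8% and 52.1% of T cells. The cells had been digested with collagenase for an hour at body temperature, and its part in these transcripts was not tested.

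A few members stood apart from the others in both libraries. In WT, 1 member had 65.2% of its 5224 UMIs from immunoglobulin genes, with 2718 UMIs of Igkc and 679 of Igha, whereas the other WT members stayed at or below 3.23%. In Ring1AKO, 6 members had 28.5% to 66.8% immunoglobulin and 26080 to 52417 UMIs each, and the others stayed at or below 4.75%. These 6 cells held 3.45% of all member UMIs, 28176 of 28654 Ighg2b UMIs, 7245 of 8219 Ighg1 UMIs and 4387 of 4572 UMIs of Slpi, a secreted protease inhibitor. A further Ring1AKO member of 8612 UMIs held 2577 of 2666 UMIs of Hbb-bs, a haemoglobin chain of red blood cells. They had 6 to 28 UMIs of the B cell genes, met the rule and remained in the levels given below, and results that rest on them are given again over the other 425 WT and 1322 Ring1AKO members. No doublet caller was applied.

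**Figure D3:**
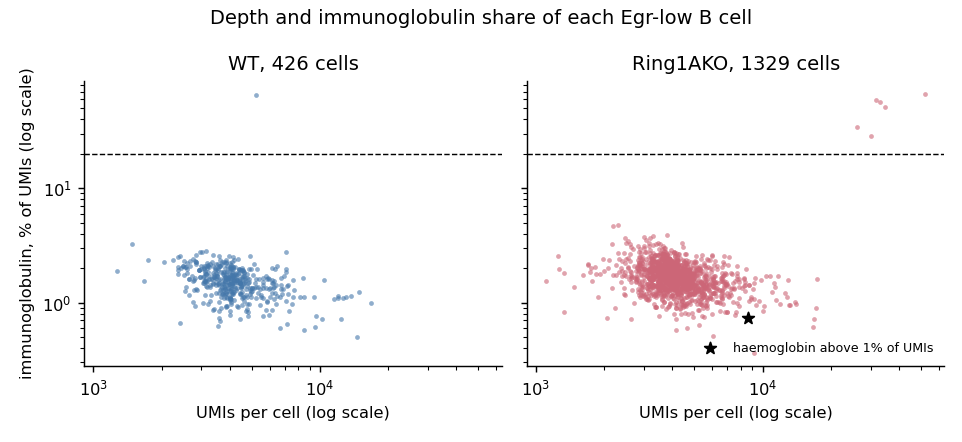
UMIs per cell (log x axis) against the percent of UMIs from immunoglobulin genes (log y axis) for each Egr-low B cell of the WT (left) and Ring1AKO (right) library, with 20% as a dashed line. In WT 1 cell and in Ring1AKO 6 cells lie above the line, and the star marks the Ring1AKO cell with haemoglobin transcripts.

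Transcripts of other cell types were read next. Of 9 T cell, NK cell and myeloid genes, 62.4% of WT and 57.4% of Ring1AKO members had no UMI at all, and 2 and 10 members had 5 or more. The 8 T cell genes summed to 35.0 and 46.7 CPM in the members, against 3693 and 4350 CPM in T cells, with Cd3e at 0 by the rule and the kinase Lck as the most abundant. The 8 macrophage genes summed to 54.9 and 30.6 CPM, of which Lyz2 gave 41.3 and 14.1 CPM, with Csf1r at 0 by the rule. The 7 NK and innate lymphoid genes summed to 7.85 and 10.6 CPM with Ncr1 at 0 in both libraries, the 6 dendritic cell genes to 13.6 and 18.9 CPM with Clec9a and Siglech at 0, and the 5 mast cell genes to 5.23 and 7.95 CPM. The 5 neutrophil genes summed to 61.2 and 147 CPM, led by S100a9, and 1 Ring1AKO cell held 91 of the 314 S100a8 UMIs and 145 of the 490 S100a9 UMIs. The 6 genes of epithelium and stroma summed to 163 and 99.7 CPM, mostly Pecam1 (149 and 83.4 CPM), which leukocytes also express. The 4 haemoglobin genes summed to 24.6 and 775 CPM, the latter mostly from the 1 member named above. The 7 plasma cell genes had the highest sums, 3304 CPM in WT and 3440 CPM in Ring1AKO members against 2753 and 3009 CPM in T cells, mostly Igha (2692 and 2599 CPM) and Jchain (507 and 722 CPM), whereas Tnfrsf17, a receptor of plasma cells, was at 0.523 and 0.993 CPM. The libraries shared 11 barcodes among all kept cells and none among the members, and 2 members shared a barcode with another kind of kept cell of the other library.

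Egr-low B cells made up 7.09% (6.46 to 7.77) of kept cells in the WT library and 16.8% (15.97 to 17.63) in the Ring1AKO library, a ratio of 2.37. The log2 ratio of the shares was 1.24 (1.09 to 1.39), and that of Egr-high B cells was 1.33 (1.21 to 1.45), from 10.6% to 26.5%. Within the B cells the members were 40.2% (37.2 to 43.2) in WT and 38.8% (37.1 to 40.4) in Ring1AKO, intervals that overlap. The share of kept cells was thus larger in Ring1AKO for both classes of B cell, and the members kept a like fraction of the B cells. The depth of the members was alike, with a median of 4036 UMIs and 1528 genes in WT and 4070 UMIs and 1432 genes in Ring1AKO. The median mitochondrial share was 2.25% and 2.67%, and the median share of ribosomal protein genes was 32.6% and 36.0%. Summed over members, the libraries gave 1911780 and 6041062 UMIs, so the WT levels carry the wider counting error.

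Ring1 itself had 35 and 92 UMIs in the members, or 18.3 CPM (12.8 to 25.5) in WT and 15.2 CPM (12.3 to 18.7) in Ring1AKO, with a log2 ratio of -0.29 (-0.84 to 0.34). The counts come from the 3′ end of transcripts and the deleted segment is not given in the sources used here, so these levels are no check of the genotype labels. Rnf2, the paralogous ligase Ring1B, was at 35.0 CPM in WT and 39.6 CPM in Ring1AKO. Of the 22 genes of Polycomb repressive complex 1, 16 reached the 100 UMIs over both libraries set for a comparison, and none differed more than 2-fold. Of the 12 genes of Polycomb repressive complex 2, which methylates histone H3, 10 were compared and 1 was lower past 2-fold, the methyltransferase Ezh2 (29.8 CPM in WT and 14.1 CPM in Ring1AKO), with a log2 ratio of -1.09 (-1.58 to -0.57). Over the alternatives the Ezh2 ratio ranged from -1.25 to -0.69, so it did not stay past 2-fold in all. The medians of these groups were -0.20 and -0.40, beside -0.16 over all genes compared.

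Across 6338 genes with at least 100 UMIs over the members of both libraries, 40 genes (0.631%) were more than 2-fold higher in Ring1AKO and 201 genes (3.17%) more than 2-fold lower. These shares describe a single pair of libraries and are the background against which the gene lists are read. Without the 8 members rich in immunoglobulin or haemoglobin the same genes gave 26 higher (0.41%) and 176 lower (2.78%). The median log2 ratio over all 6338 genes was -0.16, and the ratios of single genes are given without removing it. The gene IDs of the files were matched to the annotation of GRCm38 for the positions given below.

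**Figure D4:**
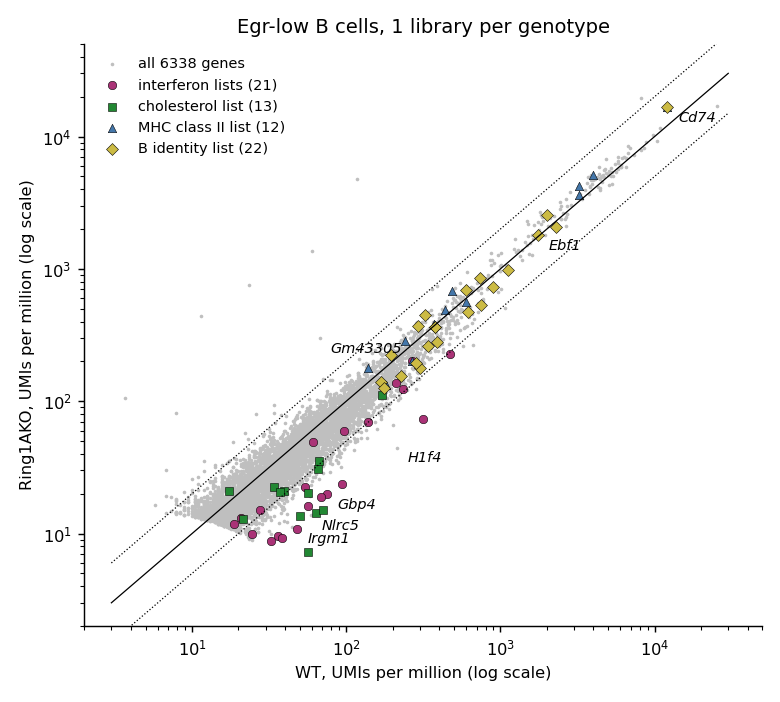
Level of each of the 6338 genes in Egr-low B cells of the WT (x axis) and Ring1AKO (y axis) library in CPM, both on log scales, with 4 gene groups marked. The solid line is equality and the dotted lines are 2-fold, with 13 of 21 interferon and 6 of 13 cholesterol genes under the lower dotted line and every B identity and MHC class II gene between the dotted lines.

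The genes that define B cells differed little. Of 22 genes of B cell identity, all 22 were compared, none differed more than 2-fold, and the median log2 ratio was -0.17. The lowest was Cr2 at -0.74 (-0.89 to -0.59) and the highest Vpreb3 at 0.48 (0.35 to 0.61), a chaperone of immunoglobulin assembly. Pax5, which maintains B cell identity, was at 341 CPM in WT and 263 CPM in Ring1AKO. The 20 genes of B cell receptor signalling had a median of -0.19 with none past 2-fold, from Rasgrp3, an activator of Ras (217 and 119 CPM, -0.87), to Cd81, a tetraspanin of the B cell co-receptor complex (74.8 and 120.0 CPM, 0.67). The most abundant gene of this list, Cd79a, was used by the rule to choose the members. Of 13 inhibitory receptors and phosphatases 10 were compared, with a median of -0.056 and none past 2-fold, among them the inhibitory lectin Cd22 (389.7 and 281 CPM). The 20 B cell transcription factors had a median of -0.32 and none past 2-fold, with Bach2, a repressor of plasma cell fate, lowest (164 and 106 CPM, -0.64) and Spi1, which encodes PU.1, highest (58.1 and 71.8 CPM, 0.30).

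Follicular genes were all deep enough to compare, unlike those of other B cell subsets. The 13 follicular genes had a median log2 ratio of -0.18 and none past 2-fold, with Ighd at 896 CPM in WT and 736 CPM in Ring1AKO and the chemokine receptor Ccr7 at 596 and 739.8 CPM. Cd55, a complement regulator, was the lowest of them (260.5 and 142 CPM, -0.87 (-1.03 to -0.71)). Of 12 marginal zone genes 7 were compared, with a median of -0.16. Of 11 B-1 cell genes only 5 were compared, with a median of -1.10 that was 0.10 when the Egr limit was applied after thinning, and 3 were lower past 2-fold, the transcription factor Bhlhe41 (36.6 and 16.7 CPM), the scaffold protein Ahnak (46.6 and 21.9 CPM) and the membrane-binding protein Anxa2 (23.5 and 9.10 CPM). Over the alternatives their log2 ratios reached -0.97 for Bhlhe41, -0.41 for Ahnak and -0.51 for Anxa2, all under 2-fold. Germinal centre genes were near the limit of detection, with 8 of 9 under 100 UMIs. Mybl1, a transcription factor of dividing germinal centre cells, had 26 and 10 UMIs in 11 and 9 cells. Of 7 memory genes 5 were compared, with a median of -0.47, and 1 was lower past 2-fold, the ectonucleotidase Nt5e (23.0 and 10.6 CPM, -1.13 (-1.70 to -0.53)).

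With Igha set aside, Ighm or Ighd led the heavy chain transcripts in most members. Igha was at 2692 CPM in WT and 2599 CPM in Ring1AKO in the members and at 2152 and 2401 CPM in T cells, which do not make it, with a median of 10 and 11 UMIs per member and 13 and 14 per T cell. When the top heavy chain gene was taken over all 8 genes, Igha led in 48.6% (43.6 to 53.7) of WT and 63.4% (60.6 to 66.1) of Ring1AKO members. It also led in 99.7% and 99.9% of T cells, and how much of the members' Igha was cell-free was not tested. Without Igha, Ighm or Ighd led in 95.7% (93.2 to 97.5) of 397 WT and 97.1% (96.0 to 98.0) of 1250 Ring1AKO members with at least 2 UMIs, and an Ighg gene in 4.28% and 2.88%. Of T cells, 335 of 1432 in WT and 512 of 1311 in Ring1AKO reached 2 UMIs of these genes, and Ighm or Ighd led in 76.1% and 35.5% of those. At least 1 UMI of Ighm or Ighd was seen in 96.0% and 97.1% of members and in 39.3% and 42.6% of T cells. Lambda transcripts outnumbered Igkc in 13 of 426 WT and 40 of 1327 Ring1AKO members, 3.05% and 3.01%. Of 7 heavy chain genes compared 4 were higher past 2-fold in Ring1AKO over all members, and 1 without the members rich in immunoglobulin.

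Homing receptors included a pair of integrin chains lower in Ring1AKO. Of 15 genes 12 were compared, with a median of -0.22, and 2 were lower past 2-fold. Itga4, the chain shared by the gut-homing integrin and VLA-4, was at 246 CPM in WT and 121 CPM in Ring1AKO, with a log2 ratio of -1.03 (-1.19 to -0.86). Itgb1, its partner in VLA-4, was at 29.8 CPM in WT and 12.6 CPM in Ring1AKO, with -1.25 (-1.76 to -0.72). Itgb7, its partner in the gut-homing integrin, was at 47.1 and 52.8 CPM, a ratio of 0.15 (-0.18 to 0.52), and the follicle receptor Cxcr5 at 126 and 129.9 CPM. In T cells the log2 ratios of Itga4 and Itgb1 were -0.89 and -1.49. Over the alternatives the ratios in members reached -0.74 for Itga4 and -0.84 for Itgb1, both under 2-fold.

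Interferon-response genes were lower in Ring1AKO throughout, and the interferon-gamma list had the lowest median of all lists. Over both interferon lists 21 of 38 genes in the files were compared, and 13 were lower past 2-fold, beside 3.17% of all 6338 genes. All 21 had a log2 ratio below 0, and in 20 the interval lay below 0. The median over all 6338 genes was -0.16, so most of those ratios lay below 0 too. The shares of all genes with a ratio or an interval below 0 were not counted. The other 17 genes had fewer than 100 UMIs, at most 50 in WT and 43 in Ring1AKO, and each had the lower level in Ring1AKO. How many other genes this sparse were lower was not counted.

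Of 20 genes induced chiefly by interferon-gamma 12 were compared, and their log2 ratios had a median of -1.84, and 8 were lower past 2-fold. Irgm1 (chr11:48861968-48871683, minus strand), an immunity-related GTPase that acts on vacuoles of intracellular pathogens, was at 47.6 CPM in WT and 10.9 CPM in Ring1AKO, with a log2 ratio of -2.12 (-2.60 to -1.65). Its relatives Ifi47 and Igtp were at 38.2 and 9.27 CPM and 32.4 and 8.77 CPM. The guanylate-binding proteins, GTPases that attack pathogen membranes, were lower in the same way, with Gbp4 at 74.8 and 19.9 CPM, Gbp7 at 36.1 and 9.60 CPM and Gbp9 at 56.5 and 16.2 CPM. Irf1, a transcription factor that interferon-gamma induces, was at 139 CPM in WT and 69.4 CPM in Ring1AKO, just past 2-fold, and fell short of it with a log2 ratio of -0.96 without the 8 members rich in immunoglobulin or haemoglobin. Not past 2-fold were Socs1, the feedback inhibitor of the receptors (-0.89), Gbp3 (-0.70), the checkpoint ligand Cd274 (-0.62) and Ciita, the activator of MHC class II genes (-0.39). Among those too sparse to compare, Gbp2 had 50 and 18 UMIs and Gbp6 34 and 3 although the Ring1AKO members had the greater summed depth. The guanylate-binding proteins and GTPases are families of similar genes whose 3′ reads the counting could split, so the level of each member is less certain than that of the family.

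Of 20 type I interferon genes 10 were compared, with a median of -1.17, and 6 were lower past 2-fold, 1 of which stands on the interferon-gamma list too. In members with 0 UMIs of the Egr and Nr4a1 genes the median over the same 10 genes was -0.77, with 4 lower past 2-fold. Ifi213 (chr1:173566283-173599274, minus strand), of the family of nuclear DNA sensors, was at 93.6 CPM in WT and 23.5 CPM in Ring1AKO, with a log2 ratio of -1.99 (-2.32 to -1.67). After thinning to 2000 UMIs, 20.1% (16.4 to 24.3) of WT and 4.73% (3.64 to 6.02) of Ring1AKO members had a UMI of Ifi213, from 30.3% and 9.63% before thinning, beside 6.79% and 3.25% of T cells. Stat2, a transcription factor of type I signalling, was at 68.5 and 18.9 CPM, and Xaf1, a pro-apoptotic interferon-induced protein, at 24.6 and 9.93 CPM. Zbp1, a sensor of nucleic acids in the Z form, was at 54.4 and 22.5 CPM, a ratio of -1.28 that was -2.08 without the 8 members set apart above. Ifi27l2a was at 469 CPM in WT and 225 CPM in Ring1AKO, with -1.06 (-1.18 to -0.93), and was seen in 46.4% of WT and 27.4% of Ring1AKO members at 2000 UMIs. Not past 2-fold were Ifi203 (-0.90), Trim30a (-0.72), Irf7 (-0.70) and Bst2 (-0.32). Isg15, a ubiquitin-like protein, had 10 and 7 UMIs, and Cxcl9, a chemokine for T cells on the other list, had 7 and 0.

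The same genes were read in the other cells of each library. In Egr-high B cells, where 2.11% of the 6338 genes were lower past 2-fold, 11 of the 13 interferon genes were lower past 2-fold, with medians of -1.39 for the interferon-gamma list and -0.80 for the type I list. The 13 had been picked by their ratios in Egr-low B cells. Over all genes compared, 8 of 12 interferon-gamma and 4 of 10 type I genes were lower past 2-fold in Egr-high B cells. In T cells, where 1.18% of these genes were lower past 2-fold, 12 of the 13 had a log2 ratio below 0 and 1 was past 2-fold, Ifi213 at -1.12, with list medians of -0.53 and -0.61. Of all 21 interferon genes compared, 20 had a more negative ratio in Egr-low B cells than in T cells and 18 were below 0 in T cells, a difference between classes that was not tested. In barcodes under 100 UMIs, which hold cell-free RNA, Irgm1 was at 45.3 and 12.9 CPM. The cell-free share of member UMIs would be 3.88% in WT and 4.45% in Ring1AKO if all Igha in members were cell-free, and 2.02% and 3.45% if all S100a8 were. With the profile subtracted at the shares by Igha, the list medians were -1.87 and -1.16, and at those by S100a8, an alternative chosen after seeing the data, -1.87 and -1.17.

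**Figure D5:**
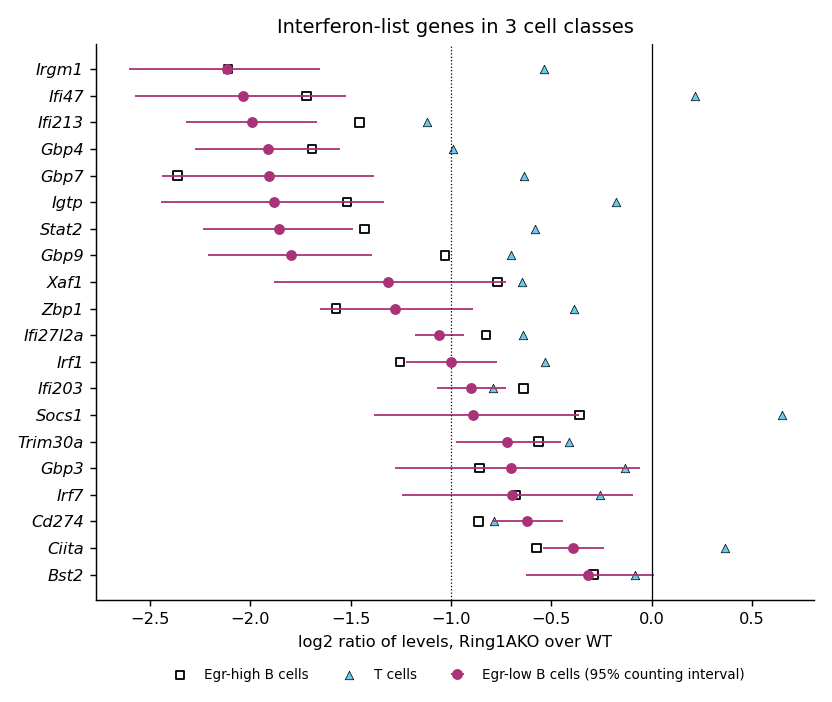
Log2 ratio of levels, Ring1AKO over WT (x axis), of 20 interferon-list genes compared, in Egr-low B cells (filled, with 95% counting intervals), Egr-high B cells (squares) and T cells (triangles), with 2-fold lower as a dotted line. Of the 21 genes compared 20 are shown, and of the 13 lower past 2-fold 12 are shown. The T cell values of these 12 lie nearer to 0, with Ifi47 at 0.22. Of the 13 genes, 10 had a more negative ratio in Egr-low than in Egr-high B cells. The 13 had been picked by their ratios in Egr-low B cells, which favours more negative values there.

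The promoters of these genes were read to show what the group shares in sequence. RefSeq promoter windows on GRCm38.p6, from 250 bases before to 50 bases after the start, were found for 8 of the 13 genes that were lower past 2-fold. The letters of an interferon-stimulated response element, GAAA and GAAA with any 2 bases between, were searched on both strands and stood in 5 of the 8 (62.5%), against 3.99% of 27025 genes. The letters TTCNNNGAA of a gamma-activated site stood in 3 of the 8 (37.5%), against 9.55%. Of all 27 interferon-list genes with a window, 70.4% held the former, also among genes that were not past 2-fold. The matches are a description of letters and not of bound sites. Windows of 30 bases around a match are shown on the strand of the gene, with the matching letters in capitals, for 5 genes with the first motif and for Irf1 with the second.
Ifi213, chr1:173599326-173599355, minus strand: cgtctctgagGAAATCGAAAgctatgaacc
Gbp7, chr3:142530273-142530302, plus strand: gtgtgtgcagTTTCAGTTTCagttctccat
Stat2, chr10:128270266-128270295, plus strand: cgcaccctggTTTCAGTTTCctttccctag
Irgm1, chr11:48871431-48871460, minus strand: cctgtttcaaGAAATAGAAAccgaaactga
Igtp, chr11:58199512-58199541, plus strand: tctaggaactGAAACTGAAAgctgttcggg
Irf1, chr11:53769914-53769943, plus strand: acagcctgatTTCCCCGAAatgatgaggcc
Gbp7 and Stat2 carry the motif on the opposite strand, and Irgm1 has a further match that overlaps the one shown. The Irgm1 window lies before the RefSeq start used here but inside the span of the gene given above, whose annotated start is further upstream.

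Among the genes of antigen presentation, those past 2-fold belonged to the class I list. Of 12 MHC class I genes all were compared, with a median of -0.31, and 2 were lower past 2-fold. Nlrc5 (chr8:94434356-94527272, plus strand), the transactivator of MHC class I genes, was at 59.1 CPM in WT and 13.7 CPM in Ring1AKO, with -2.10 (-2.53 to -1.68), and the peptide transporter subunit Tap1 at 188 CPM in WT and 87.7 CPM in Ring1AKO, with -1.10 (-1.30 to -0.90). The immunoproteasome subunit Psmb9, which lies beside Tap1, was at 189 and 95.8 CPM, a ratio of -0.98 that did not reach 2-fold. The class I molecules themselves differed little, with B2m at 1808 and 1831 CPM, H2-K1 at 1379.9 and 1377 CPM and H2-D1 at 1290.4 and 1394 CPM. Of 12 MHC class II genes none was past 2-fold and the median was 0.21, with Cd74, the invariant chain, at 12103 CPM in WT and 16590.3 CPM in Ring1AKO and H2-Aa at 3991 and 5145 CPM. The lowest class II genes were H2-Eb2 at -0.43 and Ciita at -0.39. The class II median was 0.28 in Egr-high B cells and 0.68 in T cells, which do not make class II in mice. The part of cell-free RNA in these ratios was not tested beyond the subtraction above, which gave a class II median of 0.21.

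Several genes of cholesterol synthesis and uptake were also lower past 2-fold in Ring1AKO. This list of 22 genes was drawn up after the lowest genes had been seen, so its counts are a description alone. Of 13 compared, 6 were lower past 2-fold, none was higher past 2-fold, and the median was -0.93. The only ratio above 0 was that of Ebp, a sterol isomerase at 0.25 (-0.28 to 0.88). Msmo1 and Cyp51, which demethylate sterol intermediates, were at 70.6 and 15.1 CPM and 63.3 and 14.2 CPM, with log2 ratios of -2.22 (-2.63 to -1.83) and -2.15 (-2.57 to -1.74), and the isomerase Idi1 at 50.2 and 13.6 CPM. Hmgcs1, which makes HMG-CoA, was at 56.5 and 20.4 CPM, and Insig1, the sterol-regulated brake of the pathway, at 65.9 and 30.8 CPM. Srebf2, the transcription factor of the pathway, was at 171 and 112 CPM, a ratio of -0.61 (-0.80 to -0.41). In Egr-high B cells 5 genes were lower past 2-fold with a median of -0.79, and in T cells none with a median of -0.21. The letters TCACNCCAC of a sterol response element, searched on both strands, stood in 1 of the 5 promoter windows found for the 6 genes, against 1.44% of all 27025 genes.
Hmgcs1, chr13:119690204-119690233, plus strand: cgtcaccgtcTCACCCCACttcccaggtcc

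Among the 10 lowest ratios by the size rule, 4 belonged to the cholesterol list and 3 to the interferon lists. The others were Nlrc5, H1f4 and C130026I21Rik. H1f4 (chr13:23620629-23622558, minus strand), a linker histone gene, was at 213 CPM in WT and 44.4 CPM in Ring1AKO, with a log2 ratio of -2.26 (-2.49 to -2.04), and was seen in 30.8% (26.4 to 35.5) of WT and 9.15% (7.65 to 10.8) of Ring1AKO members at 2000 UMIs. Its ratio was -2.07 in Egr-high B cells and -2.27 in T cells. C130026I21Rik was at 70.6 CPM in WT and 18.4 CPM in Ring1AKO, with -1.94, -2.02 in Egr-high B cells and -1.10 in T cells.

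Of the 10 highest ratios by the size rule, 6 had most of their Ring1AKO UMIs in the members set apart. Hba-a1, Hbb-bs, Hba-a2 and Hbb-bt had log2 ratios of 6.13, 5.20, 4.67 and 3.28, with 856, 2577, 618 and 454 of their Ring1AKO UMIs in 1 cell. Slpi (4.98) and Creld2 (1.36), a protein of the endoplasmic reticulum, stood at 0.40 and 0.029 without the members set apart. Gm43305 (chr14:54292443-54297456, minus strand), a predicted gene, was spread over many cells at 67.5 CPM in WT and 299 CPM in Ring1AKO, with 2.14 (1.89 to 2.42), and its ratio was 1.85 in Egr-high B cells and 1.96 in T cells. Gm42031, also a predicted gene, was at 26.2 and 80.3 CPM, with 1.59 (1.20 to 2.07). S100a8 and S100a9, calprotectin genes of neutrophils, were at 23.0 and 52.0 CPM and 34.0 and 81.1 CPM, with 1.15 and 1.24, or 0.66 and 0.73 without the 1 Ring1AKO member named above that held 91 and 145 of their UMIs, beside 1137 and 1507 CPM of S100a8 in barcodes under 100 UMIs. At the share set by Igha the cell-free profile accounted for at least as many UMIs of both genes as the members held, so no ratio remained after it was subtracted. Without the members rich in immunoglobulin or haemoglobin, Fosl2, an AP-1 factor, at 18.4 and 51.3 CPM (1.45), and Acp5, an acid phosphatase, at 71.3 and 151 CPM (1.07), were among the highest. Over the alternatives Fosl2 ranged from 0.39 to 2.38 and Acp5 from 0.74 to 1.41, so neither stayed past 2-fold in all.

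Activation genes were nearly level between the libraries. Of 20 activation genes 17 were compared, with a median of -0.039 and none past 2-fold, and the highest was Myc (168 and 253 CPM, 0.59 (0.42 to 0.77)), a driver of B cell growth. Of 20 immediate-early and dissociation genes, which left out the 4 of the rule, 19 were compared, with a median of 0.18 and none past 2-fold. Junb was at 879 CPM in WT and 1169.5 CPM in Ring1AKO and Klf4, a factor of quiescent cells that digestion also induces, at 138 CPM in WT and 96.7 CPM in Ring1AKO. The summed level of the 20 genes was 16941 and 18892 CPM in the members and 16937 and 17700 CPM in Egr-high B cells. Hspa1b was the most abundant of them. The median log2 ratio of the single genes, members over Egr-high cells, was -0.48 in WT and -0.49 in Ring1AKO.

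Against Egr-high B cells the members differed in what accompanies Egr expression, a comparison that the rule itself created. Of 8615 genes, 110 (1.28%) were lower in members past 2-fold in both libraries and 10 (0.116%) were higher. Outside the rule, the log2 ratios of members over Egr-high cells were -1.69 and -1.17 in WT and Ring1AKO for Myc, -1.15 and -1.33 for the NF-kB inhibitor Nfkbia and -1.41 and -1.47 for its relative Nfkbid. Cd69 stood at -0.71 and -0.74 and Cd83 at -0.59 and -0.65, whereas Jun stood at 0.34 and 0.37 and Hspa1a at 0.67 and 0.89. The transcripts of Jun and Hspa1a were thus not lowest in the cells with the fewest Egr transcripts. Fos and Junb were higher in B cells with 15 or more Egr and Nr4a1 UMIs than in those with 0. Fos went from 319 to 1537 CPM in WT and from 454 to 1213 CPM in Ring1AKO. Junb went from 624 to 2048 CPM in WT and from 1018 to 2273 CPM in Ring1AKO. The 5 genes lowest in members were Dcn, Mgp, Ccn1, Sfrp1 and Serpina3n, of connective tissue and secreted proteins, with single Egr-high cells holding up to 195 Dcn UMIs and 462 Mgp UMIs. The 5 highest were B3gnt8, Gm42670, 6430590A07Rik, Ifi208 and Slfn5, with 14 to 107 UMIs each in the members of a library. These 10 genes were sparse, and with each cell thinned to 1000 UMIs 16 of the 20 ratios could be formed and 12 stayed past 2-fold. Among those under it were Ifi208 and B3gnt8 in WT, at 0.35 and 0.84, and 6430590A07Rik in Ring1AKO, at 0.66. Ifi208, of the same family as Ifi213, was at 25.6 CPM in WT and 3.48 CPM in Ring1AKO in the members and at 9.80 and 1.62 CPM in Egr-high cells.

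Other programmes showed few differences. Of 13 receptors and survival factors of the BAFF and APRIL system 11 were compared, with a median of -0.17 and none past 2-fold, and the BAFF receptor Tnfrsf13c was at 187 CPM in WT and 155 CPM in Ring1AKO. Of 13 Toll-like receptor genes in the files 8 were compared, with a median of -0.099, and 1 was lower past 2-fold, Tlr7, the sensor of single-stranded RNA (23.0 and 10.3 CPM, -1.17 (-1.75 to -0.57)). Of 10 cytokines 4 were compared, with a median of -0.25 and none past 2-fold, and Ltb, which organises lymphoid tissue, was at 299 and 275 CPM. Il10 had 11 and 54 UMIs in 9 and 26 cells. The 16 genes of oxidative phosphorylation had a median of 0.054 and none past 2-fold, and 13 of 14 glycolysis genes had a median of 0.23 and none past 2-fold, with Ldha, lactate dehydrogenase, at 104 CPM in WT and 158 CPM in Ring1AKO.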

How the data were processed

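Single-cell RNA was measured with the 10x Genomics 3′ kit in 1 library per genotype. The authors aligned and counted the reads with Cell Ranger and deposited unfiltered matrices of UMI counts for 32228 genes, with 74414511 UMIs in the WT and 81862096 UMIs in the Ring1AKO library. The study's methods and the submitters' processing notes name different mouse builds, and the file header and the notes different Cell Ranger versions, so positions were taken by gene ID from the GRCm38 annotation. Mx1 and Tlr10 were not analysed here, and some listed genes are not reported here, although list counts and medians include them.

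UMIs were summed over the members of each library and given as CPM with exact Poisson intervals, shares with exact Clopper-Pearson intervals, and log2 ratios (Ring1AKO over WT) with 1 UMI added and exact conditional intervals, all at 95%. The interval of the ratio of shares was set on the log scale by the normal approximation. Only genes reaching 100 UMIs in the members of both libraries together were compared, and a gene was counted as higher or lower past 2-fold. No test was run, since each pool of 5 mice is 1 sample. The members and gene lists were chosen with earlier results of these data known, and the cholesterol list after its genes had been seen. Besides listed genes, the 10 highest and 10 lowest ratios among genes with at least 50 CPM in either library were named (immunoglobulin, T cell receptor and rule genes left out), as were the 5 highest and 5 lowest ratios of members over Egr-high cells. Doublets were neither called nor removed. Scripts (Python 3.11.15, numpy 2.4.6, scipy 1.17.1, pandas 2.3.3, matplotlib 3.10.9) were tested on simulated data. Alternatives changed the limits on UMIs, genes and mitochondrial share per cell, on B cell genes, on Egr and Nr4a1 genes and on Jchain. They also changed the depth, the scaling, the cell-free share and the fold. The exclusion of cells with Cd3e, Csf1r or Mki67 was not varied.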

Additional observations from a re-analysis of the deposited data

Results flagged for a closer look

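Several genes had ratios of opposite sign in Egr-low B cells and in another class of the same libraries, differences that were not tested. Ighg1 had a log2 ratio (Ring1AKO over WT) of 4.50 in Egr-low B cells and -1.63 in T cells, where 1 WT cell held 4224 of 4726 Ighg1 UMIs. At 2000 UMIs per cell Ighg1 was seen in 10.2% of WT and 26.9% of Ring1AKO members and in 11.5% and 29.1% of T cells, so by detection it was higher in Ring1AKO in both classes. Ighg2b stood at 5.34 in Egr-low and -1.29 in Egr-high B cells, and Slpi at 4.98 and -1.04, with 168 of 377 WT Egr-high Slpi UMIs in 1 cell. The 6 Ring1AKO members rich in immunoglobulin held 28176 of the 28654 Ighg2b UMIs, 7245 of the 8219 Ighg1 UMIs and 4387 of the 4572 Slpi UMIs. The neutrophil genes S100a8 and S100a9 stood at 1.15 and 1.24 in Egr-low B cells and at -1.21 and -1.31 in T cells, where single T cells held up to 720 S100a9 UMIs. Without the 1 Ring1AKO member that held 91 S100a8 and 145 S100a9 UMIs, an alternative chosen after seeing the data, both were under 2-fold in Egr-low B cells, at 0.66 and 0.73.

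Barcodes under 100 UMIs, which the comparisons above did not use as cells, carried immunoglobulin transcripts at high level. Igha was at 69469 CPM in the WT and 58438 CPM in the Ring1AKO library, and Igkc at 101772 and 96213 CPM.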

How the results depend on the processing

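No paired analysis was possible because a single library stood for each genotype. Each alternative was run on the 1 pair of libraries, so stability here says nothing of the spread between mice. Over the alternatives the log2 ratio of H1f4 ranged from -2.32 to -2.06, that of Ifi213 from -2.17 to -1.75 and that of Msmo1 from -2.41 to -1.92. The median over all genes ranged from -0.18 to -0.12 and that of B cell identity from -0.22 to -0.06. Of 911 values for the 51 named genes past 2-fold, 825 stayed past 2-fold the same way and 12 changed sign. For Tlr7, Nt5e, Tap1, Xaf1 and Ifi27l2a the values nearest 0 were -0.72, -0.95, -0.81, -0.81 and -0.74, all under 2-fold. No ratio was formed where a gene had at most 3 UMIs in both libraries, as for S100a8 and S100a9 without UMIs of 9 other-lineage genes, which include them, and less the cell-free profile at the share by Igha. WT depth limits all of this: 1911780 UMIs over 426 members.

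The log2 ratio of shares was 1.39 for cells with 0 UMIs of Egr1, Egr2, Egr3 and Nr4a1 and -0.051 when only B cells formed the denominator. The number of genes past 2-fold was 119 (25 higher, 94 lower) at 0 such UMIs, 85 (17 higher, 68 lower) when members were thinned to 1000 UMIs, 415 (71 higher, 344 lower) with a minimum of 50 UMIs and 1166 (198 higher, 968 lower) at 1.5-fold. The number higher was 26 with Jchain below 0.1% and 23 without the members rich in immunoglobulin or haemoglobin, an alternative chosen after seeing the data, in which the minimum of UMIs was applied again.

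At 0 such UMIs the medians were -0.66 for the type I and -0.76 for the interferon-gamma list. The interferon-gamma median was -1.39 without UMIs of 9 T cell, NK cell and myeloid genes and -0.75 after thinning to 1000 UMIs, where the MHC class II median was 0.32 and the cholesterol median -0.41. Fewer genes of both interferon lists and the cholesterol list reached 100 UMIs in these settings, only 1 cholesterol gene after thinning. Over the genes of the report the interferon-gamma medians were -1.52, -1.59 and -1.69 in turn and the thinned cholesterol median -1.39. The type I median was -0.77 at 0 such UMIs over its 10 genes, and the cause was not tested.

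Among genes past 2-fold, signs changed for immunoglobulin, secretory and haemoglobin genes, and the cause was not tested. Among results under 2-fold, signs changed in 196 of 4373 values, in 71 of 243 genes, and in 20 of 447 values of list medians, in 9 of 25 lists. Ighg2c was at -0.71 with mitochondrial UMIs below 10%. At 0 Egr and Nr4a1 UMIs, Hbb-bt was at -1.08 and Ighg2b at -1.67. Derl3, of protein quality control, was at -0.080 and Ighg2b at -0.29 with Jchain below 0.1%. Without UMIs of the 9 other genes, Ighe was at -0.24. Without the members rich in immunoglobulin or haemoglobin, Derl3 was at -0.14, Hbb-bt at -0.44 and Ighg2b at -0.50. With levels averaged per cell Derl3 was at -0.028. Thinned to 1000 UMIs, the heavy chain median was at -0.0044, Creld2 at -0.43 and Derl3 at -1.13. For the median log2 ratio, B-1 cells gave 0.10 when the Egr limit was applied after thinning and 0.00081 with a minimum of 50 UMIs.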
